A study of Caenorhabditis elegans with 2 samples.

Results

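Mitochondrial ribosomal protein genes are the nuclear genes for the proteins of the ribosome inside mitochondria. They were taken as the protein-coding genes of the Ensembl WBcel235 annotation whose symbol starts with mrpl- (large subunit) or mrps- (small subunit). There were 70 of them, 41 mrpl and 29 mrps, among 19973 protein-coding genes. Each was examined for recovery of CEH-79, a homeobox transcription factor, by ChIP-seq, in which DNA bound to a protein is precipitated with an antibody and sequenced. The worms were Caenorhabditis elegans of strain OP553, with the allele unc-119(tm4063) III and the integrated transgene wgIs553, which encodes CEH-79 with GFP-FLAG at its C terminus. Chromatin of whole young adults of mixed sex, collected 66 hours after synchronization as starved L1 larvae, was sheared by sonication and precipitated with anti-GFP. The series held 1 group of 2 biological replicates from 1 transgenic line, so all tissues were mixed and no contrast between conditions could be made.

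The mitochondrial ribosome makes the few proteins encoded by mitochondrial DNA, which are core parts of the respiratory chain and the ATP synthase. Its small subunit decodes the messenger RNA and its large subunit joins the amino acids. Its own proteins are made in the cytosol from nuclear genes and imported. In C. elegans many such genes lie in operons, in which 1 promoter serves a run of genes on the same strand, and many messenger RNAs are trans-spliced, so that an annotated start can be a splice site rather than the point where transcription begins.

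The deposited data were peak lists. A pooled list held 30000 candidate peaks from both replicates, and the replicate lists held 30000 in replicate 1 and 29624 in replicate 2. The authors deposited these as peaks together with background, so a weak candidate is not a called binding site. The optimal list held the peaks kept by the irreproducible discovery rate, a measure of how well replicates rank the same peaks. These were the strongest pooled candidates, down to a signal of 86.5. The top of a replicate list below means its strongest peaks, as many as the optimal list holds. The strength of a peak is the authors' own signal value, in arbitrary units, which ran over 23.2 to 409.4 in the pooled list with a median of 32.6. It was used only within a list, apart from a spread stated in the closing section. Replicate lists were compared by rank, with rank 1 the strongest. The lists give no read counts, so depth is unknown. A gene was given the strongest peak whose summit, the position of highest signal, lay 1000 bp upstream to 200 bp downstream of an annotated start.

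Mitochondrial ribosomal protein genes carried a candidate more often than protein-coding genes in general, while their share with an optimal peak lay near the background. A pooled candidate lay in the window of 49 of 70 genes (70%, exact binomial 95% interval 57.9% to 80.4%), against 36.0% of all protein-coding genes. An optimal peak lay in the window of 2 of 70 (2.86%, interval 0.348% to 9.94%), against 1.48% of all protein-coding genes, a share inside that interval. Replicate 1 had a candidate at 40 genes (57.1%, interval 44.7% to 68.9%), against 36.4% of all protein-coding genes. Replicate 2 had one at 42 genes (60%, interval 47.6% to 71.5%), against 36.3%. The intervals are exact (Clopper-Pearson) and cover counting error only, and genes that share a peak are not independent. The windows had the same median length, 1201 bp, in both sets.

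**Figure D1:**
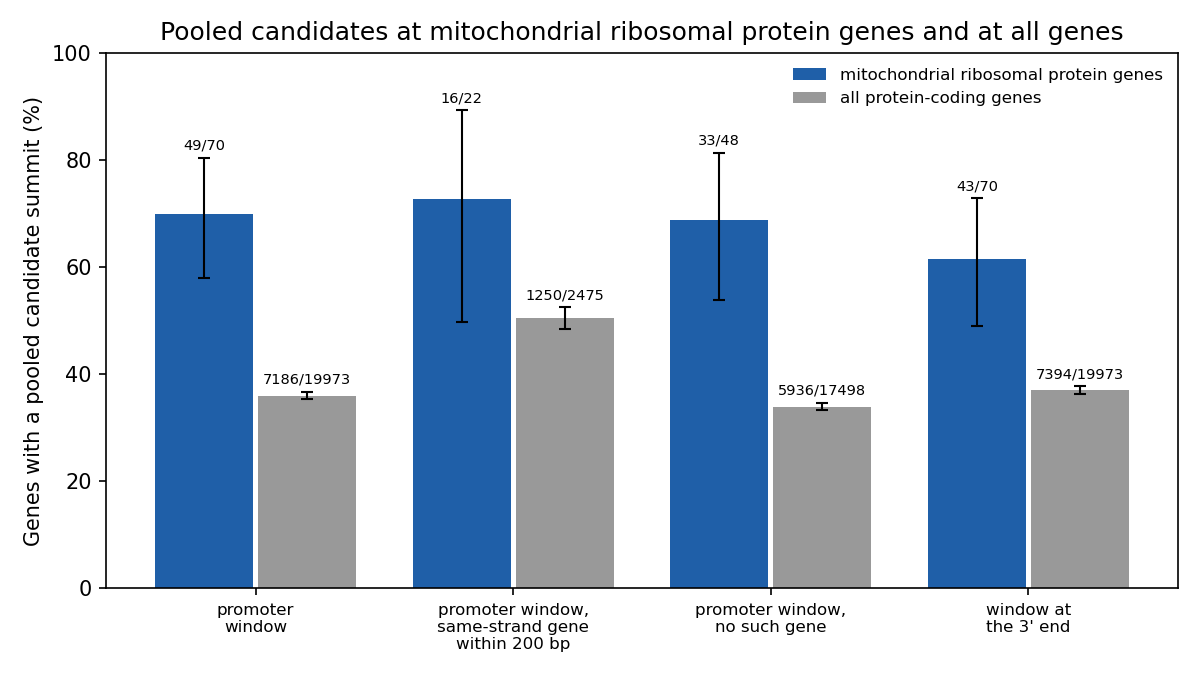
Percentage of mitochondrial ribosomal protein genes (blue) and of all protein-coding genes (grey) with a pooled candidate summit, for the promoter window, the same window split by whether a same-strand gene ends within 200 bp upstream, and a window at the 3' end. Bars start at 0, whiskers are exact binomial 95% intervals, and the numbers above are genes with a candidate over genes examined; in the promoter window the bars stand at 70% and 36.0%.

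The strength of the candidates was ordinary. Over the 49 genes with a pooled candidate the median signal was 36.8 (quartiles 31.0 and 46.2, range 23.7 to 123.8), against 35.6 (quartiles 28.8 and 46.5) over the 7186 protein-coding genes that had one. Of the 49, 2 had their strongest candidate in the optimal list, another 5 down to rank 3000, 15 from there to rank 10000, 17 from there to rank 20000 and 10 below that. As shares of all 70 genes these were 2.86%, 7.14%, 21.4%, 24.3% and 14.3%, against 1.48%, 4.33%, 9.83%, 11.1% and 9.21% of protein-coding genes. In all, 7 of 70 genes (10%, interval 4.12% to 19.5%) had a candidate of rank 3000 or better, against 5.81% of protein-coding genes. Most candidates of the family had weak support by the deposited −log10 q, which is low for a peak hard to tell from background. It was 2.48 at mrpl-23, 1.67 at mrpl-19, 1.05 at mrps-35 and 0.951 at mrpl-38, and lower at every weaker candidate. At mrps-30, the gene of median signal, it was 0.245. With genes that lack a candidate placed at 0, the median mitochondrial ribosomal protein gene stood at percentile 77.7 of all protein-coding genes by pooled signal, at 67.5 in replicate 1 and at 67.9 in replicate 2. Most protein-coding genes were tied at 0, so even a weak candidate gave a high percentile. The candidate of mrpl-9, of rank 29108, stood at 64.8, so the percentile largely restates how many genes had a candidate. In these terms the genes differed from the rest in how many had a candidate, while their signals spread over nearly the same range of quartiles.

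**Figure D2:**
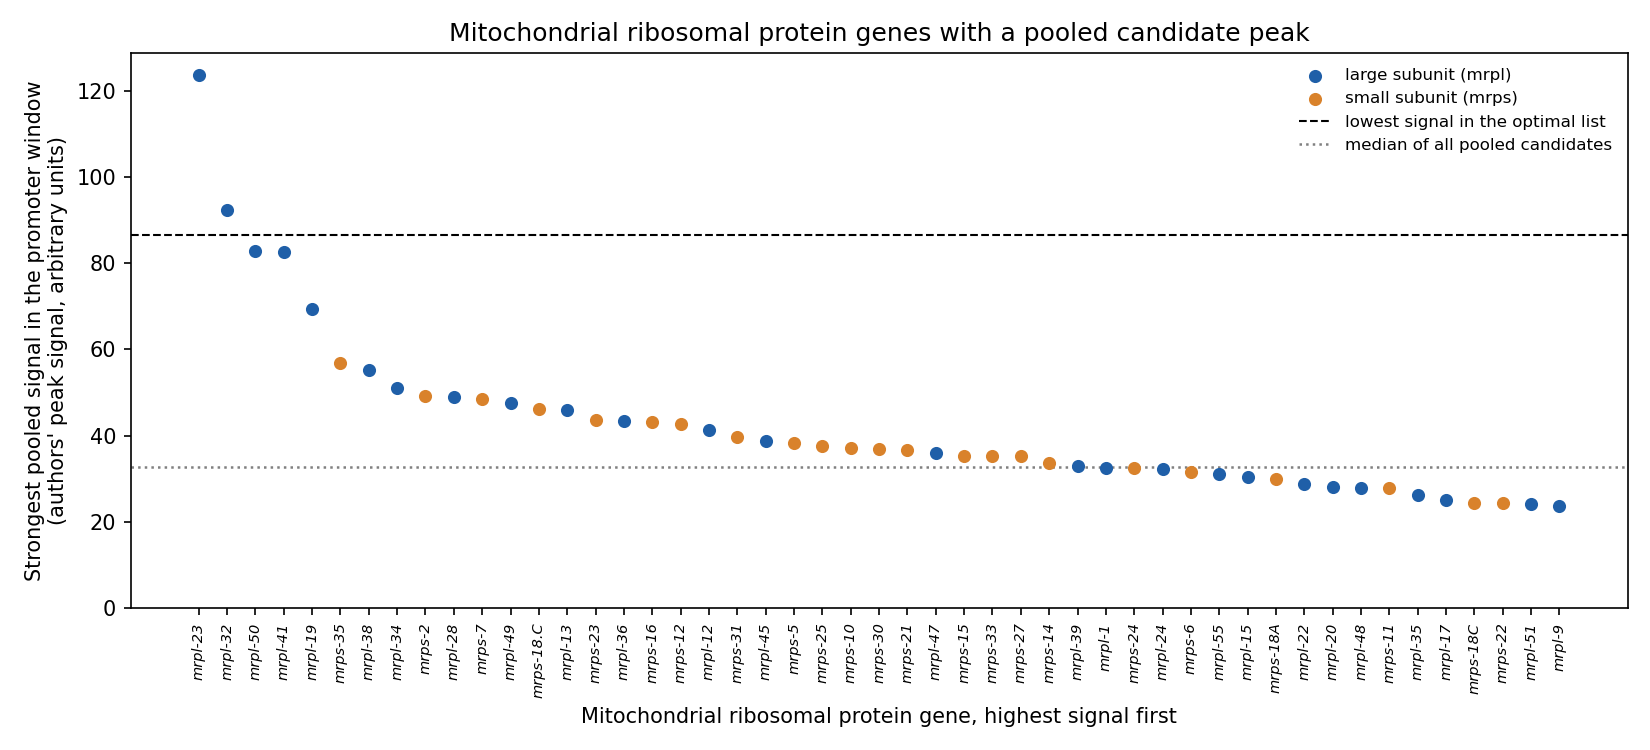
Strongest pooled signal in the promoter window (authors' peak signal, arbitrary units) of the 49 mitochondrial ribosomal protein genes that had a candidate, highest first, blue for the large and orange for the small subunit. The dashed line is the lowest signal of the optimal list, 86.5, and the dotted line the median of all pooled candidates, 32.6; mrpl-23 and mrpl-32 stand above the dashed line.

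The highest signal belonged to mrpl-23, whose bacterial counterpart L23 sits at the exit of the peptide tunnel. Its window held an optimal peak of signal 123.8 and rank 150, with the summit 986 bp upstream of the start, at the edge of the window. That summit lay in an intron of fars-1, which encodes a phenylalanyl-tRNA synthetase subunit and ends 95 bp upstream on the same strand, and within 500 bp of the snoRNA gene T08B2.13. No other of the 49 strongest candidates lay that near a tRNA, snoRNA or snRNA gene, which is 2.04%, against 3.145% over protein-coding genes with a candidate. In replicate 1 the overlapping peak had signal 80.7, at the top of that list, but its own summit fell outside the window, and the best candidate inside ranked 12673. In replicate 2 the peak had signal 43.3 and rank 559. A second pooled candidate, of signal 36.2, lay 20 bp downstream of the mrpl-23 start, so the start itself carried a signal near the median of the family.

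Next came mrpl-32, which in yeast is known as a large subunit protein matured by a mitochondrial protease. Its optimal peak, chrIII:8449450-8449873 of ce11, had signal 92.3 and rank 460, with an intergenic summit 95 bp upstream of the start. In replicate 1 the strongest candidate had signal 66.9 and rank 233, at 291 bp upstream, and in replicate 2 signal 57.1 and rank 171, at 59 bp upstream. A second replicate 1 candidate, with its summit 88 bp upstream, had signal 42.9 and rank 1297. By its strongest candidates, whose summits lay apart, mrpl-32 was the 1 gene of 70 at the top of both replicate lists (1.43%, interval 0.0362% to 7.70%), against 0.741% of protein-coding genes. The nearest gene upstream on the same strand, rpn-3, which encodes a proteasome subunit, ended 410 bp away. A further pooled candidate of signal 58.9 had its summit 104 bp downstream of the start, so a pair of overlapping candidates spanned the start of mrpl-32.

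Just below the weakest optimal peak, of signal 86.5, stood mrpl-50 at 82.8 and mrpl-41 at 82.5. The summit for mrpl-50 lay 172 bp downstream of the start in its own coding exon, and the same summit lay in the window of enol-1, the gene for the glycolytic enzyme enolase. The replicates differed there. Replicate 2 ranked the peak 148, while replicate 1 had no candidate summit in the window and an overlapping peak of rank 5351. The chaperonin subunit gene cct-2 ended 25 bp upstream of mrpl-50, the smallest gap above 0 in the family. For mrpl-41, a large subunit protein with no bacterial counterpart, the summit lay 46 bp upstream of the start in intergenic sequence, and the peak ranked 1652 in replicate 1 and 1108 in replicate 2. The mrpl-41 summit was thus close to the start in the pooled list and in both replicates.

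The sequence at pooled summits, with 50 bp on each side, is described next. The pooled list holds background as well, so a window shown need not be bound. Windows of 6 of the 12 genes with the highest signal follow. Not shown are mrps-35 and mrps-2, whose summits lay in untranslated regions, and mrpl-23, mrpl-19, mrpl-38 and mrpl-34, so those shown are not the 6 strongest. They lie at chrIII:8449612-8449712 (+) for mrpl-32, chrII:8929963-8930063 (+) for mrpl-50, chrII:288843-288943 (+) for mrpl-41, chrII:156061-156161 (-) for mrpl-28, chrIV:14767843-14767943 (-) for mrps-7 and chrV:12727766-12727866 (+) for mrpl-49. The sequence is the RefSeq assembly of WBcel235 (ce11), written 5′ to 3′ on the strand of the gene. Capitals mark TTTCAG, the 3′ splice site consensus of the worm, where it ends directly before the annotated start.
mrpl-32: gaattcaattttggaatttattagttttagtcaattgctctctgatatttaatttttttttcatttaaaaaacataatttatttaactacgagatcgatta
mrpl-50: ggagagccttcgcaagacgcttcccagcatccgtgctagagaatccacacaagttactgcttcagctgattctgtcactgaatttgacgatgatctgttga
mrpl-41: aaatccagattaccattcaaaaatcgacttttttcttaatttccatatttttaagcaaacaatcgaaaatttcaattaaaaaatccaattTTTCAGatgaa
mrpl-28: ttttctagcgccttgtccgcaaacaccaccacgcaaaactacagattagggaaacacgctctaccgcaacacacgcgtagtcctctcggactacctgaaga
mrps-7: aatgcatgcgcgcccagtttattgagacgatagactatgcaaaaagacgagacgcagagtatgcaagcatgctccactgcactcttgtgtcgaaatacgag
mrpl-49: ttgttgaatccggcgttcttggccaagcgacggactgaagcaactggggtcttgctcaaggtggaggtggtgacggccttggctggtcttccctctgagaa
The windows of mrpl-32 and mrpl-41 were rich in A and T, with 19.8% and 22.8% G and C. The others shown held 48.5% in mrpl-50, 51.5% in mrpl-28, 47.5% in mrps-7 and 57.4% in mrpl-49. Of those not shown, mrpl-23 held 55.4%, mrpl-19 53.5%, mrps-35 42.6%, mrpl-38 25.7%, mrpl-34 40.6% and mrps-2 32.7%. Across these 12 windows G and C thus ranged over 19.8% to 57.4%. The mrpl-50 window is coding sequence of that gene, and the mrpl-49 window lies over a coding exon of rpl-28, a cytosolic ribosomal protein gene that points the other way.

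The homeodomain core TAATTA, searched on both strands, was in 3 of the 49 summit windows (6.12%), against 3.40% of the 7186 windows of protein-coding genes. The genes were mrps-2, mrps-23 and mrps-18C. Their pooled ranks were 4166, 6241 and 27849, so none of the 7 strongest summits held the word. For mrps-23 the window was chrIII:9523859-9523959 (-), reaching into a coding exon of the splicing factor gene prp-40, and for mrps-18C it was chrIII:4935413-4935513 (+). They are shown on the strand of the gene, with TAATTA in capitals, because they hold the word that homeodomain proteins are known to recognise.
mrps-23: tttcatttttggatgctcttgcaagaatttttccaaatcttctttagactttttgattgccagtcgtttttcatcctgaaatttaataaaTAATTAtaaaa
mrps-18C: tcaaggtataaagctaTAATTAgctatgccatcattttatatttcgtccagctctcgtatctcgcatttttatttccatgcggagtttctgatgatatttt
The other words searched on both strands were also rare in the 49 windows. TGATAA, the GATA factor core, was in 3 (6.12%), against 7.57% of windows of protein-coding genes, and TTGCGC in 3, against 4.47%. GTTCGA, the core of the internal B box of tRNA genes, was in 3, against 4.43%. GAGAGA was in 2 (4.08%), against 9.60%. GTTGCC was in 1 (2.04%), against 3.31%, and GGGCGG in 1, against 4.38%. G and C made up 38.8% ± 10.1 of the 49 windows, against 41.5% ± 9.33 of the 7186 (SD over windows). A match is a description of the letters and not a site.

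The other genes with high signals differed in where the summit lay. For mrpl-19, whose bacterial counterpart sits at the interface of the subunits, the signal was 69.3 with the summit 60 bp inside its coding exon, and the peak ranked 3935 in replicate 1 and 962 in replicate 2. For mrps-35 the signal was 56.9 at 90 bp upstream, in an untranslated region of the neighbouring gene sws-1, which shared the summit. Replicate 2 ranked that peak 334, while the overlapping peak of replicate 1 ranked 19068. The best candidate of replicate 1 for mrps-35, of rank 15630, was a different peak, with its summit 558 bp upstream of another annotated start. For mrpl-38 the signal was 55.2 in intergenic sequence upstream. Replicate 2 ranked that peak 920, while the overlapping peak of replicate 1 ranked 13035. The best candidate of replicate 1 in the mrpl-38 window, of rank 3898, was a different peak, with its summit 102 bp downstream of the start. For mrpl-34 the signal was 51.0 at 980 bp upstream, inside a coding exon of lid-1, a gene with a role in lipid droplet breakdown. Of these 4 summits, those of mrps-35 and mrpl-34 lay in a neighbouring gene.

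Signals of 43.7 to 49.1 completed the 15 strongest. They belonged to mrps-2 (49.1), mrpl-28 (48.9), mrps-7 (48.4), mrpl-49 (47.7), mrps-18.C (46.2), mrpl-13 (46.0) and mrps-23 (43.7). The mrps-2 summit lay 268 bp upstream in an untranslated region of natc-1, which encodes a subunit of an N-terminal acetyltransferase. The mrpl-28 summit lay 102 bp upstream in intergenic sequence. That peak ranked 2942 in replicate 1, and replicate 2 had no candidate in the window. The reverse held for mrps-7, at 163 bp upstream, with rank 882 in replicate 2 and none in replicate 1. The mrps-7 summit also lay in the window of the divergent gene Y57G11C.3. The mrps-18.C summit, 195 bp downstream in its own coding exon, was shared with T14B4.1, and the mrpl-13 summit lay 132 bp downstream in its own intron. The weakest strongest candidate of the family was that of mrpl-9, of signal 23.7 and rank 29108.

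The replicates named overlapping but not identical genes. A candidate lay in the window in both replicates for 30 of 70 genes (42.9%, interval 31.1% to 55.3%), against 21.7% of all protein-coding genes. Another 10 had one in replicate 1 only, 12 in replicate 2 only and 18 in neither. For 21 of the 30 (70%), the strongest peaks of the replicates overlapped, against 70.6% of protein-coding genes with a candidate in both. Across the 30 genes the Spearman correlation of replicate ranks was 0.33, against 0.41 across the 4333 protein-coding genes with both. Where the strongest peaks overlapped it was 0.44 in the family, against 0.45 over protein-coding genes. Genes are not independent replicates, and the correlation is a description. At the top of the replicate 1 list, mrpl-32 was the 1 gene with a summit in its window (1.43%), against 1.48% of protein-coding genes. At the top of the replicate 2 list there were 4 genes (5.71%, interval 1.58% to 13.99%), against 1.33%. These were mrpl-50, mrpl-32, mrps-35 and mrpl-23.

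**Figure D3:**
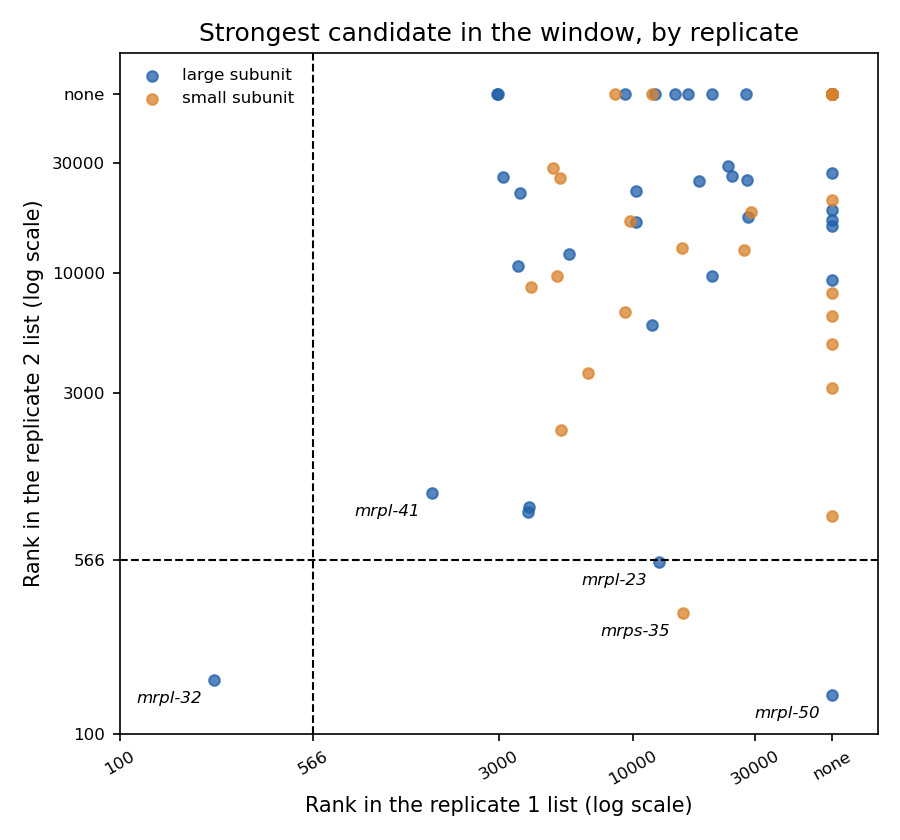
Rank of the strongest candidate in the promoter window in replicate 1 (horizontal) and replicate 2 (vertical), both on log scales, for the 70 mitochondrial ribosomal protein genes, blue for the large and orange for the small subunit, with "none" for no candidate in the window. Dashed lines mark the last rank counted as the top of a list; mrpl-32 is the point inside both, and mrpl-23, mrpl-50 and mrps-35 are inside in replicate 2 only.

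No candidate of the pooled list lay in the window of 21 genes. Of these, mrpl-53 had one in both replicates, mrpl-2 and mrpl-44 in replicate 1 only, and mrpl-10, mrpl-18, mrpl-30, mrpl-42 and mrps-18B in replicate 2 only. The remaining 13 (18.6%, interval 10.3% to 29.7%) had none in any of the 3 lists, against 47.3% of protein-coding genes. They were mrpl-4, mrpl-11, mrpl-16, mrpl-21, mrpl-37, mrpl-40, mrpl-46, mrpl-54, mrps-9, mrps-17, mrps-26, mrps-28 and mrps-34. For the 21, the nearest pooled summit lay 236 to 9820 bp from the start, with a median of 1541 bp. The case of mrps-28 was decided by the window. Its nearest pooled summit lay 1014 bp upstream, in a peak of signal 170.7 and rank 41 that ranked 60 in replicate 1 and 49 in replicate 2. That optimal peak, chrV:19643013-19643436, had its summit in an intron of the divergent gene Y43F8C.7, within 500 bp of the snoRNA gene Y43F8C.22. Its signal was higher than that of any candidate inside the windows of the 70 genes.

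Both subunits were represented throughout the range below the strongest peaks. A pooled candidate lay at 26 of 41 large subunit genes (63.4%, interval 46.9% to 77.9%) and at 23 of 29 small subunit genes (79.3%, interval 60.3% to 92.0%). The share over protein-coding genes was 36.0%. Replicate 1 had the opposite order, 26 of 41 (63.4%) for the large and 14 of 29 (48.3%) for the small subunit, against 36.4%. That background lay inside the interval of the small subunit in replicate 1, 29.4% to 67.5%. Replicate 2 had 24 of 41 (58.5%) and 18 of 29 (62.1%), against 36.3%. The median signals were 37.3 for the large and 36.8 for the small subunit. Both optimal peaks belonged to large subunit genes (4.88%, interval 0.596% to 16.5%), and 0 of 29 small subunit genes had one, for which the interval reaches 11.9%. The share over protein-coding genes, 1.48%, lay inside both intervals. The intervals of the subunits overlapped in each list, and the difference was not tested.

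The genes often had close neighbours. A same-strand gene ended within 1000 bp upstream of 36 of 70 (51.4%), against 31.5% of protein-coding genes, and within 200 bp of 22 (31.4%), against 12.4%. In 20 of those 22 the gap was above 0, at 25 to 116 bp with a median of 104.5 bp. A divergent gene started within 1000 bp of 26 (37.1%), against 17.7%. A run placed natc-1, mrps-2 and mrpl-4 in order with gaps of 116 and 105 bp, which makes a small subunit gene and a large subunit gene neighbours. Another placed mrps-22 105 bp behind dap-3, itself the gene of a small subunit protein under another name. A pair of genes in opposite directions, mrpl-1 and mrps-24, shared a candidate of signal 32.4 in a coding exon of emc-6, a gene of the endoplasmic reticulum membrane complex.

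More than 60% of the genes had a candidate whether or not a gene on the same strand lay close upstream, and the difference was not tested. Of the 36 genes with a same-strand gene within 1000 bp, 26 had a pooled candidate (72.2%), against 41.6% of protein-coding genes so placed. Of the 34 without, 23 had one (67.6%), against 33.4%. With the distance set at 200 bp the counts were 16 of 22 (72.7%, interval 49.8% to 89.3%), against 50.5%, and 33 of 48 (68.75%, interval 53.7% to 81.3%), against 33.9%. The 50.5% lay inside the first interval and the 33.9% below the second. When each gene in a run of same-strand genes at most 200 bp apart was given the window of the first gene of its run, 43 of 70 had a pooled candidate (61.4%), against 35.2% of protein-coding genes. By that window 2 had an optimal peak (2.86%), against 1.56%. These were mrpl-32 and mrpl-48, and mrpl-23 was no longer among them. The peak gained by mrpl-48, of signal 91.2 and rank 478, lay 1581 bp upstream of its own start and in the window of vps-37, a gene of an endosomal sorting complex, which ends 93 bp before it. It ranked 812 in replicate 1 and 904 in replicate 2.

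Candidates were also frequent at the other end of the genes. A window of 200 bp upstream to 1000 bp downstream of the 3′ end held a pooled candidate in 43 of 70 (61.4%, interval 49.0% to 72.8%), against 37.0% of protein-coding genes. The share at the 3′ end was thus close to that at the start in the family, as it was over all protein-coding genes. The family's genes were short, with a median length of 1125.5 bp, against 2027 bp, so windows at both ends can overlap or reach the same peak. Whether the higher share at starts reflects the genes' surroundings was not tested.

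Within the promoter windows the summits did not gather at the annotated start. The median summit lay 349 bp upstream (quartiles 734 and 95 bp upstream), against 279.5 bp upstream (quartiles 622 and 20.25 bp upstream) over protein-coding genes. Of the 49, 18 lay more than 500 bp upstream (36.7%, against 33.5% over protein-coding genes). Another 12 lay more than 250 and up to 500 bp upstream (24.5%, against 18.7%). Nearer than that on the upstream side were 10 (20.4%, against 25.2%), and 9 lay at or downstream of the start (18.4%, against 22.6%). A coding exon held 23 summits (46.9%), against 26.2% over protein-coding genes, and intergenic sequence 15 (30.6%), against 45.0%. Introns held 7 (14.3%), against 19.1%, and untranslated regions 4 (8.16%), against 9.73%. The summit was inside the gene itself for 10 (20.4%), against 32.7%, and inside another protein-coding gene for 24 (49.0%), against 22.3%. The gene's own start was the nearest start for 31 (63.3%), against 82.9%, and the summit fell in another gene's window as well for 19 (38.8%), against 21.9%. For such shared summits the lists do not say to which gene a peak belongs.

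**Figure D4:**
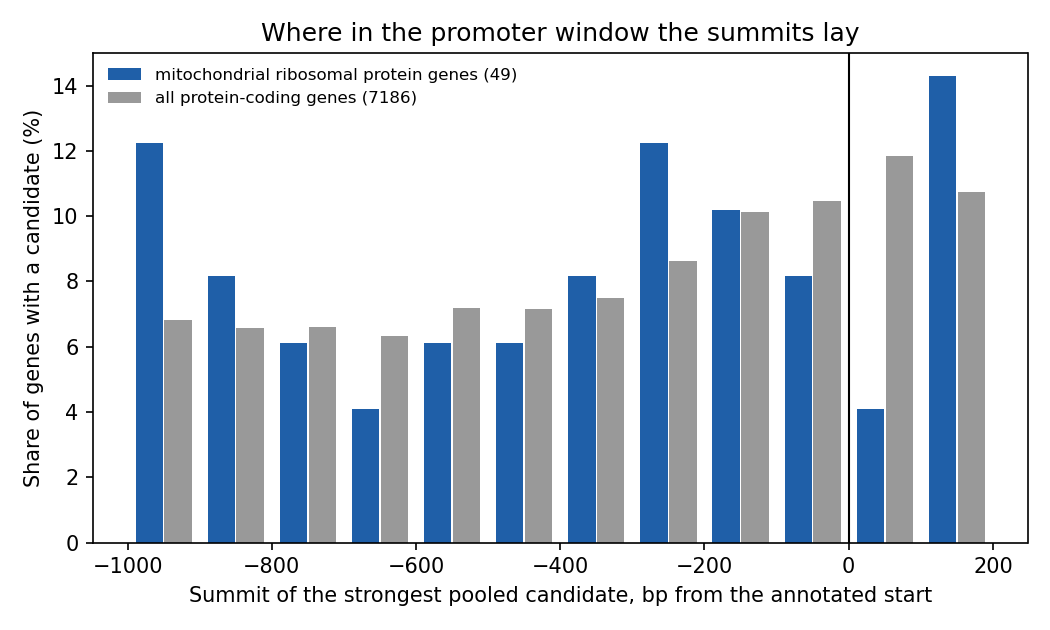
Distance of the strongest pooled candidate's summit from the annotated start (bp, negative upstream), in bins across the promoter window, as a percentage of the 49 mitochondrial ribosomal protein genes with a candidate (blue) and of the 7186 protein-coding genes with one (grey). The medians were 349 bp and 279.5 bp upstream.

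The annotated starts often looked like splice sites. The bases AG directly preceded the start of 54 of 70 genes (77.1%), against 27.6% of protein-coding genes, and TTTCAG preceded 25 (35.7%), against 12.3%. The mrpl-41 sequence above is an example. Of the 81 cytosolic ribosomal protein genes, AG preceded the starts of 85.2% and TTTCAG those of 49.4%, so both features were shared with that family. Of the 29 other mitochondrial genes described below, AG preceded 72.4%. TTTCAG preceded 10.3% of those 29, near the share over protein-coding genes.

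Chromosome III held 22 of the 70 genes (31.4%), against 13.2% of protein-coding genes, and chromosome V 10 (14.3%), against 4994 of the 19973 protein-coding genes. Of the 22 on chromosome III, 11 had a pooled candidate, against 42.6% of the protein-coding genes of that chromosome. Chromosome I held 15, of which 14 had one, against 39.6%. Chromosome II had candidates at 8 of 12, against 35.8%, chromosome IV at 8 of 11, against 34.3%, and chromosome V at 8 of 10, against 31.2%. None of the 70 lay on the X chromosome, which holds 13.7% of protein-coding genes. On chromosome III 8 of the 22 had no candidate in any list, near the 39.5% of protein-coding genes there. The counts were lower against their background elsewhere. Chromosome I had 1 of 15 without any, against 43.4%, and chromosome II 1 of 12, against 48.1%. Chromosome IV had 1 of 11, against 48.9%, and chromosome V 2 of 10, against 53.6%.

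The family was set beside the 81 genes of the cytosolic ribosome (rpl-, rps- and rla-) and 29 other genes of mitochondrial gene expression and protein quality control. The last list includes dap-3, itself a mitochondrial ribosomal protein gene by another name, which had a pooled candidate of signal 35.3 and no optimal peak. A pooled candidate lay at 70% of mitochondrial ribosomal protein genes, 70.4% of cytosolic ribosomal protein genes and 72.4% of the other mitochondrial genes. The share over all protein-coding genes was 36.0%. The median signal where there was a candidate was 36.8 in the family (quartiles 31.0 and 46.2), 45.4 in cytosolic ribosomal protein genes (32.7 and 58.3) and 42.1 in the other mitochondrial genes (31.0 and 56.6), so the quartile ranges overlapped. With genes lacking a candidate at 0, the median percentile was 77.7 in the family, 81.1 in the cytosolic and 76.4 in the other mitochondrial list. As most protein-coding genes had no candidate, the median over all of them was 0. Optimal peaks lay at 2 of 70, 8 of 81 (9.88%, interval 4.36% to 18.5%) and 3 of 29 (10.3%, interval 2.19% to 27.4%). Over all protein-coding genes the share was 1.48%, inside the family's interval (0.348% to 9.94%) and below the intervals of the 2 other lists. The intervals of the lists overlapped, and no difference between the lists, in share or in signal, was tested.

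The 3 other mitochondrial genes were hsp-60, the mitochondrial chaperonin (180.2), gfm-1, a mitochondrial elongation factor G (107.3), and ears-2, a mitochondrial glutamyl-tRNA synthetase (95.7). The cytosolic genes were rps-1, rps-16 and rps-26 of the small subunit and rpl-3, rpl-12, rpl-15, rpl-20 and rpl-35 of the large, with rpl-3 the highest at 294.4. At the 3′ end a pooled candidate lay at 61.4% of the mitochondrial and 92.6% of the cytosolic ribosomal protein genes, against 37.0% of protein-coding genes. A same-strand gene ended within 200 bp upstream of 31.4% of the family, 34.5% of the other mitochondrial genes and 6.17% of the cytosolic genes. Over all protein-coding genes it was 12.4%.

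**Figure D5:**
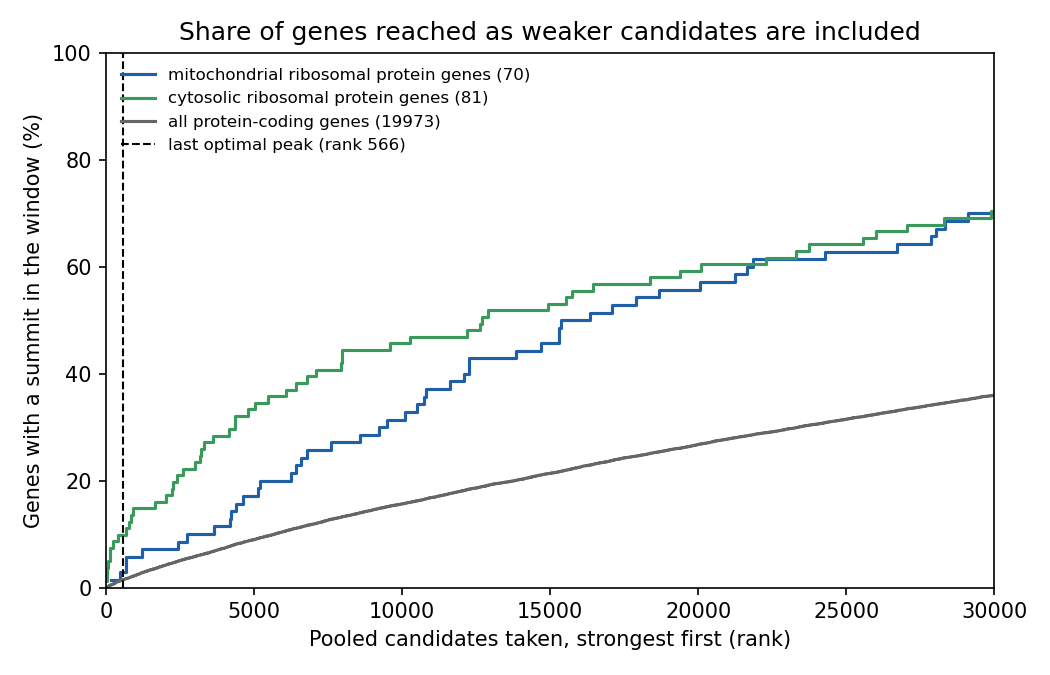
Percentage of genes with a pooled candidate summit in the promoter window as candidates are taken from the strongest to the weakest (rank), for mitochondrial ribosomal protein genes (blue, 70), cytosolic ribosomal protein genes (green, 81) and all protein-coding genes (grey, 19973). The dashed line is the last rank of the optimal list, where the curves stand at 2.86%, 9.88% and 1.48%; at rank 30000 they end at 70%, 70.4% and 36.0%.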

How the data were processed

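CEH-79 ChIP-seq peaks of 2 biological replicates were analysed. Per the file notes deposited with the lists, peaks were derived from each replicate's alignment, and from both together, against a control alignment. An irreproducible discovery rate step turned these into the optimal list. Which aligner and caller were run, and their versions, is not stated in any source at hand. Each peak's signal is a value deposited by the authors on a scale that is not stated. The deposited −log10 q of each peak was not used to rank. Depth is unknown, and precision is given for counts of genes alone.

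Summits in ce11 were placed in windows of 1000 bp upstream to 200 bp downstream of every annotated start of each protein-coding gene (Ensembl release 115, WBcel235). Shares have exact Clopper-Pearson 95% intervals. No set test was run. The assignment was tested on simulated data, where 200 of 200 planted summits were given back correctly. Same-strand and divergent distances came from the same annotation, and sequence from the RefSeq assembly. Short noncoding genes were tRNA, snoRNA and snRNA genes within 500 bp. Of 32 listed other mitochondrial genes, 29 were found by symbol.

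Members and lists were chosen with earlier results of these data known. The genes named were those with an optimal summit, the 15 strongest, those at the top of a replicate list (as many peaks as the optimal list), those just inside and outside the optimal list, those in no list, genes sharing or neighbouring a named summit, and comparison genes with an optimal summit. Others given (mrps-28 and mrpl-48 by the wider window, the runs, mrpl-1, mrps-24, mrps-18C, mrpl-9 and genes with a candidate in a replicate alone) were chosen after their values were seen. Alternatives covered other windows, interval overlap, nearest start, short noncoding neighbours, thresholds and single replicates. Lists against ce10 and signal tracks were not used here. Python 3.11.15, numpy 2.4.6, pandas 2.3.3, scipy 1.17.1 and matplotlib 3.10.9 were used.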

Additional observations from a re-analysis of the deposited data

How the results depend on the processing

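Of 49 alternative values, 29 stayed within the spread or 1.5 times of those reported. The spread was the SD of the medians of the 2 replicates, 3.53 for signal and 0.292 for percentile. For signal it sets values of different lists side by side, on scales that may differ, so it is a rough measure. A window of 500 bp upstream to 100 bp downstream gave 27 genes with a pooled candidate (38.6%, against 22.9% of protein-coding genes) and 15 with one in both replicates. It gave 1 with an optimal peak (mrpl-32, 1.43%, against 0.946%) and a median percentile of 0, since most genes then had no candidate. A window of 2000 bp upstream to 500 bp downstream gave 4 with an optimal peak, mrps-28, mrpl-48, mrpl-23 and mrpl-32 (5.71%, against 2.29% of protein-coding genes). It gave 3 among the strongest of both replicates and a percentile of 70.8. Giving each summit to the nearest start alone gave 33 with a pooled candidate (47.1%, against 30.7%), 19 with one in both replicates and a percentile of 0. Overlap of peak intervals gave 3 among the strongest of both replicates and a percentile of 75.9. The 5′ end alone gave a percentile of 78.2. Leaving out peaks near short noncoding genes gave 1 optimal peak (mrpl-32, 1.43%, against 1.17%) and a percentile of 78.5. Optimal peaks above that list's median left 1 gene (mrpl-23), and candidates above the median signal left 32 (45.7%, against 21.4%). Under these settings no share over protein-coding genes is given for optimal peaks above the median. The same holds for counts in both replicates and among the strongest of both, so none of these counts can be read against a background. With a replicate left out, pooled candidates were replaced by those of the other. Without replicate 2, 40 genes had one (57.1%, against 36.4% of protein-coding genes), and without replicate 1, 42 (60%, against 36.3%). Percentiles were 67.5 to 67.9. Without replicate 2, mrpl-32 alone was at the top of the list (1.43%, against 1.48% of protein-coding genes). Without replicate 1 there were 4 genes, mrpl-23, mrpl-32, mrpl-50 and mrps-35 (5.71%, against 1.33%). The windows of the first gene of a run and of the 3′ end were chosen after seeing the data. No paired analysis was possible because there was 1 group. In each window tried, the share of genes with a pooled candidate was above that of protein-coding genes, while the optimal count rests on 1 to 4 genes. Unknown depth means that a gene without a candidate cannot be told from one below detection.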
